A study of Mus musculus with 8 samples.

Results

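Liver RNA of mice labelled Mdr2-/- was read for the genes of 4 families that remodel the extracellular matrix: the matrix metalloproteinases (Mmp), their tissue inhibitors (Timp), the ADAMTS proteases (Adamts) and the ADAMTS-like proteins (Adamtsl). The genes were taken by name alone, as every row of the deposited table whose symbol starts with Mmp, Timp, Adamts or Adamtsl followed by a digit. This gave 45 of the 30266 genes of the table: 19 Mmp, 4 Timp, 17 Adamts and 5 Adamtsl genes. Of these 45, 40 had enough reads to be tested and 5 did not.

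All samples were whole liver of male mice of 8 weeks that carry the Mdr2-/- genotype, so no liver with a working Mdr2 gene enters any comparison here. Mdr2 (Abcb4) carries phospholipid into bile, and its loss leaves bile that injures the bile ducts, so that scar tissue forms around them. One group received vehicle (PBS, 4 samples) and the other recombinant FGF21 (rFGF21, 1.0 mg/kg, 4 samples), and liver was collected 4 h later. The labels do not say that each sample came from its own animal, and what the p-values weigh is then the scatter among these libraries, part of which may be technical.

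MMPs are zinc-dependent proteases that are made with a propeptide that keeps them inactive, and between them they cut collagens, gelatin, laminin, fibronectin and elastin. TIMPs bind the active site of MMPs and block it, and TIMP3 also blocks several ADAMTS proteases. In scarring liver, stellate cells and portal myofibroblasts are known as the main source of MMP2, MMP14, TIMP1 and TIMP2, neutrophils carry MMP8 and MMP9 in granules, and macrophages make MMP12. ADAMTS proteases cut proteoglycans, trim procollagens or cut von Willebrand factor, while ADAMTS-like proteins have the same binding modules and no protease domain.

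The libraries held between 62756328 and 73313449 reads. Each library carries its column number after the group name (PBS libraries 1, 2, 4 and 5, rFGF21 libraries 1, 2, 3 and 5). Hepatocyte markers summed to between 64265 and 85849 CPM (reads of a library scaled by TMM to a common size). Retinal genes were read because the labels' protocol names retina: Gnat1 had enough reads to test (5212 in all, 7.13 to 12.5 CPM), Crx and Rcvrn had no read, and Opn1sw, Pde6b and Sag had 41, 20 and 47 reads over the 8 libraries. PBS library 4 and rFGF21 library 5 each stood apart in a value read here. Mitochondrial transcripts with Malat1 and Neat1 summed to 82997 CPM in PBS library 4 against 32987 to 43694 CPM in the others, and rFGF21 library 5 had reads on 23769 genes against 22192 to 22830 in the others. The counts of libraries were also compared pair by pair. PBS library 5 lay further than PBS library 4 from PBS library 2 and rFGF21 libraries 1, 3 and 5. It lay nearer than PBS library 4 to PBS library 1 and rFGF21 library 2. In the list of 13 RNA quality genes, Malat1 and Neat1 were called higher with rFGF21 and the 11 mitochondrial genes were lower, 6 of them at an unadjusted p under 0.05 and 0 called; their part in the differences below was not tested. Values without PBS library 4 and rFGF21 library 5 stand beside the genes and sums that lean on them.

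Levels of different genes were compared per length, as CPM divided by the kilobases of exon in the GENCODE M21 annotation (CPM per kb). Of the 45 genes, 5 had a mean of at least 10 CPM per kb, 19 of at least 1 CPM per kb, 16 lay between 0.1 and 1 CPM per kb and 10 lay under 0.1 CPM per kb. Mmp15, which encodes the membrane protease MT2-MMP, was the most abundant, at 37.0 ± 2.99 CPM per kb in PBS and 33.3 ± 2.73 CPM per kb in rFGF21 libraries (SD, n = 4 each). Its lowest library (30.6 CPM per kb) stood above the highest library of the next gene, Mmp19 (23.9 CPM per kb). Timp2, Mmp14, Adamtsl2, Mmp2, Timp1 and Timp3 followed, with means from 14.1 to 7.57 CPM per kb, and the ranges of neighbours in this order overlapped. Adamts7 (6.34 CPM per kb) was the most abundant ADAMTS protease, and Mmp7, matrilysin, an epithelial protease (4.67 CPM per kb), came after it.

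**Figure D1:**
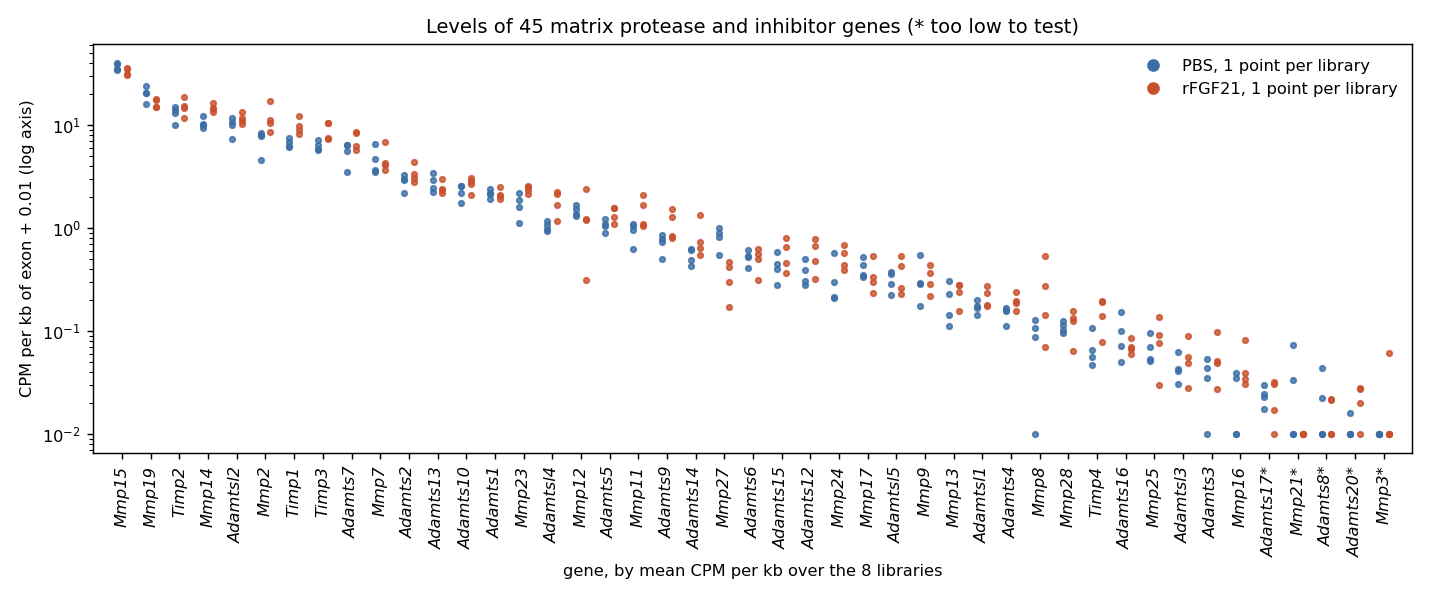
Level per length (CPM per kb of exon plus 0.01, log axis) of all 45 genes in each of the 8 libraries, ordered by the mean; blue points are PBS and red points rFGF21 libraries. Mmp15 leads at a mean of 35.2 CPM per kb, and the 5 genes marked with a star were too low to test.

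The genes too low to test were Mmp3, Mmp21, Adamts8, Adamts17 and Adamts20. Mmp3, stromelysin 1, had 7 reads in rFGF21 library 1 and 0 in every other library. Mmp21 had 12 and 4 reads in PBS libraries 1 and 2 and 0 elsewhere. Adamts8, Adamts20 and Adamts17 had 22, 35 and 57 reads over all 8 libraries. At this depth no difference in these genes was detectable. Another 5 genes with a mean under 0.1 CPM per kb were tested on few reads (Mmp16, Mmp25, Adamts3, Adamts16 and Adamtsl3). Mmp1a, Mmp1b, Mmp10, Mmp20, Adamts18 and Adamts19 were not analysed here.

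After rFGF21, 1 of the 40 tested genes was called, the membrane protease gene Mmp14, which rose 1.41-fold. The rest of the set did not pass: 0 were called lower by edgeR, where 2 (Mmp19 and Mmp27) had an unadjusted p under 0.05. DESeq2 called 5 of the set higher, Mmp14 among them, and 1 lower (Mmp27). Over the table DESeq2 called 685 genes higher and 739 lower, against 210 and 306 by edgeR, so the shares given next are for edgeR alone. The number of genes with an adjusted p in DESeq2 is not given here. Its counts, here and below, therefore have no background share beside them and cannot be weighed against one. The 1 call by edgeR is 2.5% of the tested genes, beside 2.82% of the 18315 genes tested in the whole table (1.15% called higher and 1.67% lower), so the number of calls in these families was near the background. At an unadjusted p under 0.05, 10 were higher and 2 lower, which is 25% and 5% of the 40, against 8.92% and 9.86% over the table. A log2 fold change above 0 was found for 31 of 40 (77.5%, against 50.4% of all tested genes), and the median was 0.36, against 0.00338 for all tested genes. The number above 0 was 32 of 40 and the median 0.25 when PBS library 4 and rFGF21 library 5 were both left out. In whole liver, fewer cells of a type and less RNA per cell cannot be told apart.

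Mmp14 encodes MT1-MMP, a transmembrane collagenase that also activates the proenzyme of MMP2 at the cell surface (ENSMUSG00000000957, GRCm38 chromosome 14, 54431612 to 54441265, plus strand). It was read at 55.9, 73.0, 59.3 and 61.7 CPM in PBS libraries 1, 2, 4 and 5. In rFGF21 libraries 1, 2, 3 and 5 it was read at 85.9, 88.2, 80.6 and 98.5 CPM. All 4 rFGF21 libraries lay above all 4 PBS libraries, with PBS library 2 the nearest. The means were 62.5 ± 7.39 and 88.3 ± 7.51 CPM (SD, n = 4 each), a log2 fold change of 0.50 ± 0.10 (SE, edgeR quasi-likelihood adjusted p = 0.0327). Per length, it stood at 10.5 ± 1.24 and 14.8 ± 1.26 CPM per kb. When libraries were left out in turn, Mmp14 was called in 1 of 8 fits, where PBS library 2 was missing (adjusted p = 0.0243). In the other 7 the adjusted p lay between 0.05005 (without rFGF21 library 3) and 0.0915 (without rFGF21 library 1) at log2 fold changes of 0.44 to 0.54, and it was 0.103 at 0.42 without both PBS library 4 and rFGF21 library 5. With DESeq2 on all libraries the adjusted p was 0.000797.

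**Figure D2:**
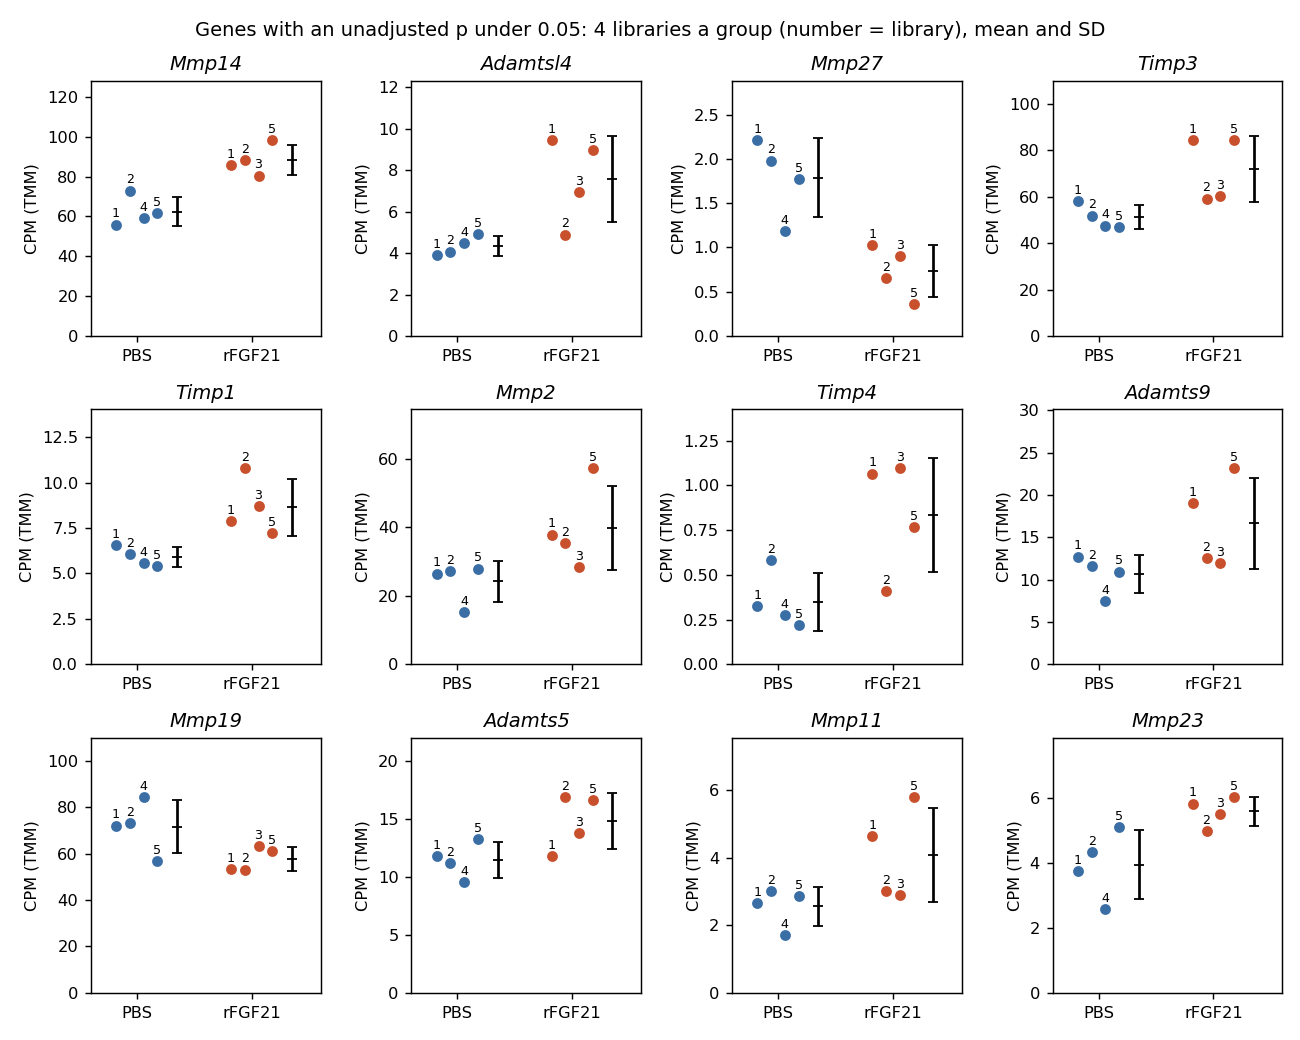
CPM of the 12 genes with an unadjusted p under 0.05, in panels ordered by p, with 1 point per library (number as in the column header), and a black bar for the mean ± SD of the 4 libraries of a group; each axis starts at 0. The groups are fully apart for Mmp14, Mmp27, Timp3, Timp1 and Mmp2, and rFGF21 library 5 is the highest point for Mmp14, Timp3, Mmp2, Adamts9, Mmp11 and Mmp23.

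The letters before the start of transcription are shown for the 4 genes whose groups were fully apart and that have an entry (Mmp14, Timp1, Timp3 and Mmp27), and for Mmp7 as a gene of the chromosome 9 protease cluster. Sequences are from RefSeq (GRCm38.p6), the 250 bases before the RefSeq start, 5′ to 3′ on the gene's strand; 31 of the 45 genes had an entry. Motif positions are counted from the RefSeq start, which for Mmp14 lies before and for Timp3 after the start in the deposited table, so the Timp3 window reaches into the gene as that table has it. Capitals mark matches on either strand to the AP-1 motif TGANTCA, the TATA box TATAAA and the GC box GGGCGG. The windows are chr14:54431348-54431597 for Mmp14, chrX:20869916-20870165 for Timp1, chr10:86300162-86300411 for Timp3, chr9:7571146-7571395 for Mmp27 and chr9:7691840-7692089 for Mmp7, all on the plus strand.
Mmp14: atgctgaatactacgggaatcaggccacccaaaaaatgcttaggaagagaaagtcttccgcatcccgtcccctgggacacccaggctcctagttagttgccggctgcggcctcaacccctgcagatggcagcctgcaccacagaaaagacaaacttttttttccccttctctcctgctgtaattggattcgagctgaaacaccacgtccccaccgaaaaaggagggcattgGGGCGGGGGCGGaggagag
Timp1: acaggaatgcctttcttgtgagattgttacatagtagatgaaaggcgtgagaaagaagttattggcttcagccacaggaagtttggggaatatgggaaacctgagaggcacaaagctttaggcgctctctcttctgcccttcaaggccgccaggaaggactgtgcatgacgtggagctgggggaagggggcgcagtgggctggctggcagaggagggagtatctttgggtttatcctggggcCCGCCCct
Timp3: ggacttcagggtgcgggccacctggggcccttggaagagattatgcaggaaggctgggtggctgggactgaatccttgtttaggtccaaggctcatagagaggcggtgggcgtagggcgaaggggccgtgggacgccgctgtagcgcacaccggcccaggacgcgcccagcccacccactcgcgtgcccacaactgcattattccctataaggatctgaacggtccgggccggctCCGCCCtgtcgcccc
Mmp27: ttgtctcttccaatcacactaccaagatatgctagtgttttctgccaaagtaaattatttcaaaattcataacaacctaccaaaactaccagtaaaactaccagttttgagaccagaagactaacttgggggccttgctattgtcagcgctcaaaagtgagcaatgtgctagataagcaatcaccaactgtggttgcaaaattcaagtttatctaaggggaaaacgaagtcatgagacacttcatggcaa
Mmp7: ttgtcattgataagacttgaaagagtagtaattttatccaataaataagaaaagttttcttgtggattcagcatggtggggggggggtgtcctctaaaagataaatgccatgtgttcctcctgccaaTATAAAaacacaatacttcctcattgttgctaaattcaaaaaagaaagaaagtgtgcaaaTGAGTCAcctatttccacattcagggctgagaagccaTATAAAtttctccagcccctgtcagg
Mmp14, Timp1 and Timp3 held a GC box and no match to the other motifs, and in Mmp14 a pair of GC boxes lay with first bases at -19 and -13 from the start. Mmp27 held none of the motifs in this window. Mmp7 held an AP-1 match at -63 and TATA boxes at -123 and -26; a second annotated start of Mmp7 has a window with none of the motifs. Over the 34 windows of these families, 19 (55.9%) held a GC box, 6 (17.6%) a TATA box and 4 (11.8%) an AP-1 match, against 32.7%, 12.4% and 6.75% of the 32851 windows of all genes. The 4 AP-1 matches were in Mmp3, Mmp7, Mmp12 and Mmp13, all of the chromosome 9 cluster. A match is a run of letters and not a measured binding site.

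MMP2, a gelatinase that cuts denatured and basement membrane collagen, is activated by MT1-MMP together with TIMP2, and the 3 genes were read side by side. Mmp2 (ENSMUSG00000031740, chromosome 8, 92827291 to 92853420) stood at 26.5, 27.2, 15.3 and 28.0 CPM in PBS libraries 1, 2, 4 and 5. In rFGF21 libraries 1, 2, 3 and 5 it stood at 37.9, 35.5, 28.5 and 57.3 CPM. The groups did not overlap, but rFGF21 library 3 and PBS library 5 nearly met, and the extremes were PBS library 4 and rFGF21 library 5. The log2 fold change was 0.71 ± 0.23 (edgeR adjusted p = 0.129), 0.49 without rFGF21 library 5, and 0.32 without both that library and PBS library 4. Timp2 was read at 54.8, 50.5, 39.4 and 57.9 CPM in PBS and 59.7, 57.4, 45.6 and 73.0 CPM in rFGF21 libraries, which overlapped (0.22 ± 0.15, adjusted p = 0.487). Without PBS library 4 and rFGF21 library 5 the Timp2 difference was -0.0046. Mmp9, the other gelatinase, stood at 1.12 ± 0.552 and 1.13 ± 0.333 CPM, a log2 difference of 0.01 ± 0.38.

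None of the other 5 genes listed here as membrane-anchored proteases was called by edgeR or DESeq2, and no difference between them and Mmp14 was tested. Mmp23 was listed among the other MMPs and is given below. Mmp15 was read at 218, 209, 187 and 185 CPM in PBS and 195, 165, 190 and 169 CPM in rFGF21 libraries. Its groups overlapped, and its log2 difference of -0.15 ± 0.10 did not pass (edgeR adjusted p = 0.442). Mmp24 (MT5-MMP, best known from neurons) stood at 1.49 ± 0.809 and 2.39 ± 0.615 CPM (adjusted p = 0.331), with PBS library 5 inside the rFGF21 range. The GPI-anchored proteases Mmp17 and Mmp25 and the transmembrane Mmp16 had log2 differences of -0.24 ± 0.28, 0.34 ± 0.55 and 1.39 ± 1.01, and that of Mmp16 was 0.43 ± 0.99 without PBS library 4 and rFGF21 library 5. As a sum per length, the 6 listed genes, without Mmp23, held 48.3 ± 3.26 CPM per kb in PBS and 49.1 ± 1.97 CPM per kb in rFGF21 libraries.

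All 4 TIMP genes had a log2 fold change above 0 and none was called by edgeR; 3 (Timp1, Timp3 and Timp4) had an unadjusted p under 0.05, and DESeq2 called Timp1 and Timp3. Timp1, the inducible inhibitor of most secreted MMPs (ENSMUSG00000001131, chromosome X, 20870166 to 20874735), was read at 6.57, 6.07, 5.56 and 5.41 CPM in PBS libraries. In rFGF21 libraries 1, 2, 3 and 5 it was read at 7.87, 10.8, 8.71 and 7.21 CPM. All rFGF21 libraries lay above all PBS libraries, and here library 2 was the highest and library 5 the lowest of the rFGF21 group. The log2 fold change was 0.55 ± 0.15 (edgeR adjusted p = 0.0915), and the adjusted p was 0.0179 with DESeq2.

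Timp3, an inhibitor that stays bound to the matrix (ENSMUSG00000020044, chromosome 10, 86300372 to 86349506), had 58.1, 51.9, 47.6 and 46.9 CPM in PBS libraries. It had 84.4, 59.2, 60.3 and 84.5 CPM in rFGF21 libraries 1, 2, 3 and 5. The rFGF21 libraries split into 2 near the PBS range and 2 well above it, with a log2 fold change of 0.50 ± 0.14 (edgeR adjusted p = 0.0887). Timp4, the inhibitor best known from heart, was low, at 0.327, 0.582, 0.274 and 0.218 CPM in PBS and 1.07, 0.409, 1.10 and 0.767 CPM in rFGF21 libraries. rFGF21 library 2 lay within the PBS range, and the difference of 1.25 ± 0.44 on the log2 scale did not pass (adjusted p = 0.160). Summed per length, TIMP genes held 28.7, 26.3, 22.3 and 26.8 CPM per kb in PBS and 34.7, 34.2, 29.1 and 37.4 CPM per kb in rFGF21 libraries. The 2 groups did not overlap in this sum, as in 12.3% of all tested single genes, either direction. PBS library 4 and rFGF21 library 5 held its lowest and highest value, so leaving them out could not make the groups overlap. The means were 26.0 and 33.85 CPM per kb with all libraries and 27.2 and 32.7 CPM per kb without those 2. The Mmp genes summed to 86.0 ± 3.49 and 88.4 ± 4.21 CPM per kb, with overlapping groups.

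**Figure D3:**
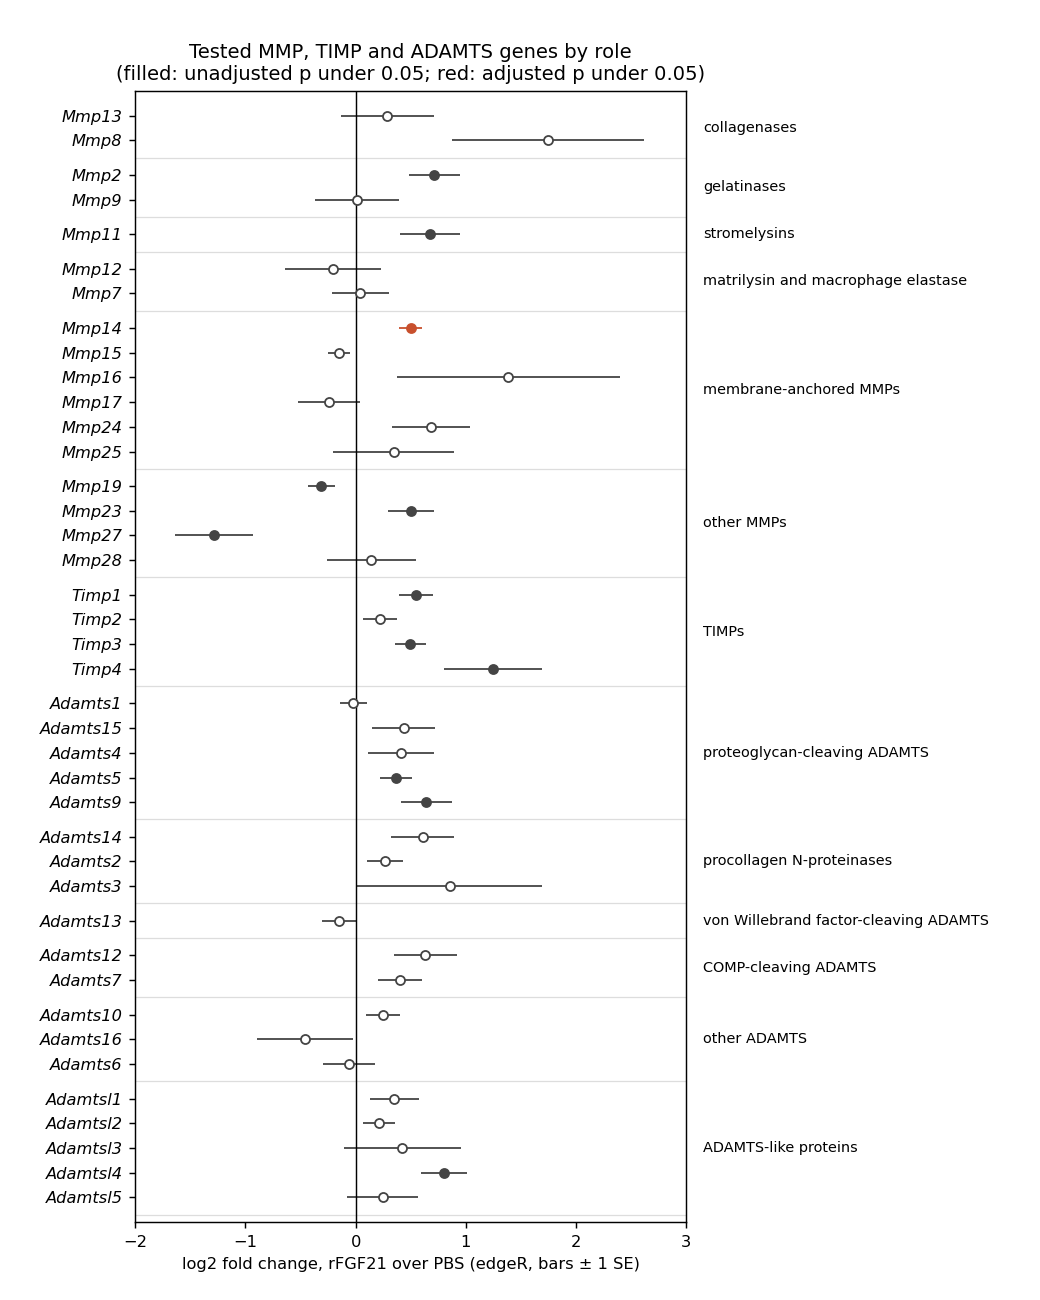
Log2 fold change (rFGF21 over PBS, edgeR, bars ± 1 SE) of the 40 tested genes in blocks by role. Mmp14 (red) is the gene that passed; filled points have an unadjusted p under 0.05, and Mmp19 and Mmp27 are the filled points to the left of 0.

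The protease genes of the chromosome 9 cluster, which lie together between 7272514 (Mmp13) and 7699585 (Mmp7) on GRCm38, did not move as a block. Mmp27, a little studied member of the family (chromosome 9, 7571396 to 7581415), was read at 2.21, 1.98, 1.18 and 1.78 CPM in PBS libraries. It was read at 1.03, 0.649, 0.904 and 0.357 CPM in rFGF21 libraries 1, 2, 3 and 5. Every rFGF21 library was below every PBS library, at a log2 fold change of -1.28 ± 0.35 (edgeR adjusted p = 0.0833; 0.0132 with DESeq2). Its neighbour Mmp8, the collagenase of neutrophil granules, had 0, 0.236, 0.188 and 0.291 CPM in PBS and 0.146, 0.649, 0.329 and 1.28 CPM in rFGF21 libraries. With 224 reads in all and overlapping groups, its difference of 1.75 ± 0.87 did not pass (adjusted p = 0.315). Mmp13, the interstitial collagenase of rodents, was read at 0.355, 0.582, 0.804 and 0.276 CPM in PBS and 0.613, 0.720, 0.726 and 0.397 CPM in rFGF21 libraries (0.29 ± 0.42, 0.76 without PBS library 4 and rFGF21 library 5). Mmp7 was read at 3.88, 3.77, 4.99 and 7.01 CPM in PBS and 3.90, 4.59, 7.38 and 4.36 CPM in rFGF21 libraries (0.04 ± 0.26). Both overlapped between groups and did not pass, and the Mmp7 difference changed sign without PBS library 1 or 2 or rFGF21 library 3.

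Mmp12, macrophage elastase, stood at 11.1, 9.95, 12.2 and 9.49 CPM in PBS and at 8.68, 17.2, 8.89 and 2.22 CPM in rFGF21 libraries. Its rFGF21 libraries held both the highest and the lowest value of all 8, and the difference was -0.21 ± 0.43 (edgeR adjusted p = 0.848), and 0.19 ± 0.25 without PBS library 4 and rFGF21 library 5. Kupffer cell and macrophage markers, whose 10 listed genes were all tested (0 called by edgeR or DESeq2, 1 lower at an unadjusted p under 0.05), summed to 688 to 1086 CPM in PBS and 540 to 919 CPM in rFGF21 libraries, lowest in rFGF21 library 5 as was Mmp12; their part in this spread was not tested. Neutrophil markers summed to 1278 to 2266 CPM in PBS and 1490 to 2772 CPM in rFGF21 libraries, with 11 of 12 listed genes tested, 0 called by edgeR or DESeq2 and 3 higher at an unadjusted p under 0.05. In rFGF21 library 5, where Mmp8 was highest, they summed to 1567 CPM, near the low end, but this sum pools markers that differed. Without PBS library 4 and rFGF21 library 5 the log2 difference of Mmp8 was 1.09 ± 1.03. In that fit the neutrophil markers Camp, Ltf, Elane and Ngp went from 1.39, 0.91, 0.69 and 0.46 to 0.50, 0.08, 0.13 and -0.096. Lcn2 and Cxcr2 went up, from 0.26 and 1.037 to 0.42 and 1.196, and the other tested neutrophil markers went down. The part of neutrophils in the Mmp8 difference was not tested.

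Mmp19, which cuts basement membrane proteins, was the second most abundant gene and pointed down. It was read at 72.1, 73.1, 84.5 and 56.7 CPM in PBS and at 53.3, 53.1, 63.2 and 61.2 CPM in rFGF21 libraries. PBS library 5 lay within the rFGF21 range, and the log2 fold change of -0.31 ± 0.12 did not pass (edgeR adjusted p = 0.199). Mmp11, stromelysin 3 of stromal cells, had 2.65, 3.00, 1.71 and 2.87 CPM in PBS and 4.63, 3.02, 2.89 and 5.80 CPM in rFGF21 libraries (0.67 ± 0.27, adjusted p = 0.213). Mmp23, an MMP without the usual hemopexin domain, had 3.75, 4.34, 2.58 and 5.11 CPM in PBS and 5.83, 4.995, 5.50 and 6.04 CPM in rFGF21 libraries (0.50 ± 0.21, adjusted p = 0.217). In both genes the groups overlapped and PBS library 4 was the lowest of the 8.

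Among the ADAMTS proteases none of 14 tested genes was called by edgeR or DESeq2; 2 had an unadjusted p under 0.05, both higher, and the median log2 fold change was 0.38. Adamts9, which cuts aggrecan and versican, was read at 12.7, 11.6, 7.49 and 10.97 CPM in PBS and 19.1, 12.5, 12.0 and 23.2 CPM in rFGF21 libraries (0.64 ± 0.23, edgeR adjusted p = 0.163). Adamts5, the main aggrecanase of mouse cartilage, was read at 11.8, 11.2, 9.54 and 13.3 CPM in PBS and 11.8, 16.9, 13.8 and 16.7 CPM in rFGF21 libraries (0.37 ± 0.15, adjusted p = 0.203). In each gene part of the rFGF21 libraries lay within the PBS range. Adamts1, which lies beside Adamts5 on chromosome 16, stood at 10.2, 11.2, 11.5 and 12.8 CPM in PBS and 10.01, 13.2, 11.1 and 10.8 CPM in rFGF21 libraries. Its groups overlapped, and its difference of -0.02 ± 0.12 was above 0 with library totals alone and in 3 of the fits with fewer libraries.

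The procollagen N-proteinases, which trim fibrillar procollagens before fibres form, were higher without passing. Adamts2 stood at 30.6, 27.0, 20.2 and 27.8 CPM in PBS and 31.1, 25.9, 28.6 and 41.1 CPM in rFGF21 libraries (0.26 ± 0.16, edgeR adjusted p = 0.417). Adamts14 (0.61 ± 0.29, adjusted p = 0.284) reached 6.95 CPM in rFGF21 library 5 and 2.79 to 3.80 CPM in the other rFGF21 libraries, against 2.19 to 3.19 CPM in PBS, and its difference was 0.16 ± 0.21 without that library and PBS library 4. Adamts3 rested on 111 reads. Both well-read genes were thus highest in rFGF21 library 5 and lowest in PBS library 4.

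Adamts13, the protease that cuts von Willebrand factor and that stellate cells are known to make in liver, was read at 14.3, 12.1, 10.9 and 16.7 CPM in PBS and 11.7, 14.6, 11.5 and 10.8 CPM in rFGF21 libraries. The groups overlapped throughout, with a log2 difference of -0.15 ± 0.15 (edgeR adjusted p = 0.646). Adamtsl2, which lies next to it on chromosome 2 and binds fibrillin microfibrils, stood at 93.5, 79.4, 58.0 and 86.1 CPM in PBS and 87.0, 92.6, 81.8 and 106 CPM in rFGF21 libraries (0.21 ± 0.14, adjusted p = 0.461). The groups of Adamtsl2 overlapped as well.

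Adamts7 and Adamts12 are known to cut the cartilage protein COMP. Adamts7 was read at 40.3, 34.97, 40.2 and 21.8 CPM in PBS and 52.2, 36.3, 38.98 and 53.7 CPM in rFGF21 libraries (0.40 ± 0.20, edgeR adjusted p = 0.309), and PBS library 5 was its lowest. Adamts12 had a difference of 0.63 ± 0.29 (adjusted p = 0.270), and 0.32 without PBS library 4 and rFGF21 library 5. Adamts10, which binds fibrillin, was read at 21.3, 21.1, 14.4 and 17.9 CPM in PBS and 23.7, 22.1, 17.2 and 25.4 CPM in rFGF21 libraries (0.24 ± 0.15), with overlapping groups. Adamts6 and Adamts16 had differences of -0.06 ± 0.23 and -0.46 ± 0.44.

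The 5 ADAMTS-like genes all had a log2 fold change above 0, with a median of 0.35. Adamtsl4, which promotes microfibril assembly and is known for its part in holding the eye lens (ENSMUSG00000015850, chromosome 3, 95676201 to 95687917), was closest to the threshold after Mmp14. It was read at 3.89, 4.07, 4.50 and 4.93 CPM in PBS and 9.47, 4.90, 6.96 and 8.98 CPM in rFGF21 libraries. Only rFGF21 library 2 reached into the PBS range, and the log2 fold change was 0.80 ± 0.21 (edgeR adjusted p = 0.0698). Without that library the adjusted p was 0.0283 at a log2 fold change of 0.97, and with DESeq2 it was 0.00608. Adamtsl1, Adamtsl3 and Adamtsl5 had differences of 0.35 ± 0.22, 0.42 ± 0.53 and 0.24 ± 0.32.

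The spread of these genes over the libraries was uneven. Of the 40 tested genes, 20 (50%) had their highest CPM in rFGF21 library 5 and 14 (35%) their lowest in PBS library 4, where 17.1% and 21.9% of all tested genes did. The groups were fully apart in 5 of the 40 (4 higher and 1 lower, 12.5%), beside 12.3% of all tested genes (5.9% higher and 6.39% lower). Over the table, 8.92% of tested genes were higher and 9.86% lower at an unadjusted p under 0.05. The sum of the myofibroblast markers was also lowest in PBS library 4 and highest in rFGF21 library 5. Of 10 listed myofibroblast genes 9 were tested, all 9 above 0 and 0 called by edgeR (3 by DESeq2, 5 at an unadjusted p under 0.05). Their log2 differences ran from 0.18 (Tagln) and 0.22 (Acta2) to 0.79 (Lox), and their sum was 716, 745, 478 and 664 CPM in PBS and 1023, 692, 826 and 1171 CPM in rFGF21 libraries. Cholangiocyte markers, with 10 of 10 tested, 0 called by edgeR, 4 by DESeq2 and 7 at an unadjusted p under 0.05, summed to 315, 296, 203 and 286 CPM in PBS and 398, 283, 321 and 452 CPM in rFGF21 libraries. Stellate cell markers, with 10 of 10 tested, 0 called by edgeR or DESeq2 and 1 lower at an unadjusted p under 0.05, summed to 429 to 559 CPM in PBS and 438 to 505 CPM in rFGF21 libraries. The groups overlapped in the myofibroblast and the cholangiocyte sum with all 8 libraries. The PBS and rFGF21 means were then 651 and 928 CPM for myofibroblast and 275 and 363 CPM for cholangiocyte markers. Without PBS library 4 and rFGF21 library 5 they were 709 and 847 CPM and 299 and 334 CPM. In the fit without both libraries the log2 differences of Acta2 and Tagln went up, to 0.33 and 0.29. Those of the other tested myofibroblast markers went down. Red cell markers, with 6 of 7 tested, all 6 above 0, 0 called by edgeR, 2 by DESeq2 and 3 at an unadjusted p under 0.05, summed to 303 to 415 CPM in PBS and 412 to 756 CPM in rFGF21 libraries. None of these markers was at 0 in all libraries. Without PBS library 4 and rFGF21 library 5, the log2 differences of Adamts9, Mmp11 and Mmp23 came to 0.31 each, and those of Adamts2 and Adamtsl2 to 0.0046 and 0.0132. Those of Timp1, Timp3, Adamtsl4 and Mmp27 were 0.60, 0.38, 0.73 and -1.21 in the same fit. The part of these markers, of mitochondrial reads in PBS library 4 and of single libraries in the differences above was not tested.

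**Figure D4:**
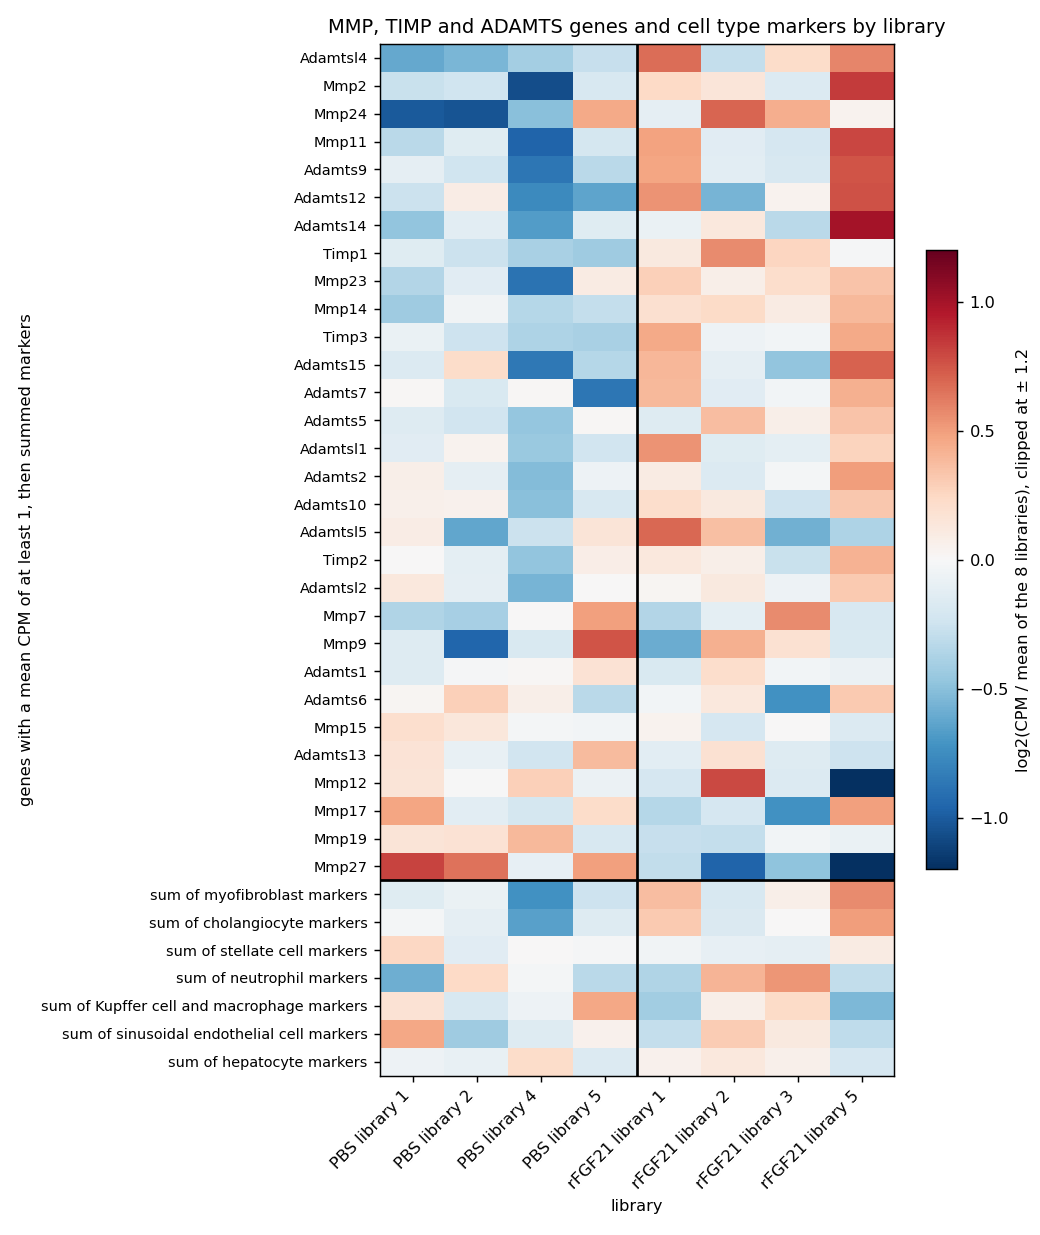
Log2 of the CPM over the mean of the 8 libraries for the 30 tested genes with a mean of at least 1 CPM, ordered by fold change, and below the line for summed cell type markers; the vertical line parts PBS from rFGF21 libraries, and colours are clipped at ± 1.2. Blue cells gather in PBS library 4 and red cells in rFGF21 library 5, both in the protease genes and in the myofibroblast and cholangiocyte sums.

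Other genes that set the activity of these proteases were read from lists. For the counts in these lists, here and in the next paragraph, the edgeR shares over the whole table are the background. They were 1.15% called higher and 1.67% called lower. At an unadjusted p under 0.05 they were 8.92% higher and 9.86% lower. Among inhibitors and modulators, 1 of 14 tested genes rose and 1 fell. Thbs1, thrombospondin 1, a matrix protein that activates TGF-beta, rose from 7.51 ± 1.13 to 12.7 ± 2.48 CPM (0.76 ± 0.17, edgeR adjusted p = 0.0442). Tfpi2, a Kunitz inhibitor of plasmin and some MMPs, fell from 29.3 ± 0.240 to 21.99 ± 2.48 CPM (-0.41 ± 0.10, adjusted p = 0.0487). Of 7 proprotein convertases, which cleave the propeptide of membrane MMPs and ADAMTS proteases, 1 fell: Pcsk4, a convertase known from testis, from 18.5 ± 1.43 to 10.4 ± 1.12 CPM (-0.83 ± 0.11, adjusted p = 0.0065). Without PBS library 4 and rFGF21 library 5, the adjusted p was 0.149 for Thbs1, 0.0777 for Tfpi2 and 0.024 for Pcsk4. The median of the inhibitors was 0.03 and that of the convertases -0.07.

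Genes of the plasminogen system, whose product plasmin activates several pro-MMPs, had 0 of 8 called by edgeR, 2 called higher by DESeq2 and 4 higher at an unadjusted p under 0.05, with a median of 0.52. Plau, urokinase, averaged 2.78 ± 0.934 CPM without and 5.38 ± 0.546 CPM with rFGF21 (0.95 ± 0.23, edgeR adjusted p = 0.0573). The values of its receptor Plaur were 2.26 ± 0.506 and 3.87 ± 0.399 CPM (0.77 ± 0.21, adjusted p = 0.0751). Without PBS library 4 and rFGF21 library 5 the log2 differences were 0.75 ± 0.23 for Plau and 0.92 ± 0.23 for Plaur. Related zinc proteases outside these families had 0 of 10 called by edgeR and 1 higher by DESeq2, with Adam10 nearest (0.34 ± 0.08, adjusted p = 0.0546) and 4 higher and 1 lower at an unadjusted p under 0.05. Matrix substrates had 0 of 17 called by edgeR, 4 called higher by DESeq2 and 8 higher at an unadjusted p under 0.05, with a median of 0.34. This list shares Col1a1, Col1a2 and Col3a1 with the myofibroblast markers, Dcn with the stellate cell markers and Spp1 with the cholangiocyte markers. Vcan, the proteoglycan versican that ADAMTS proteases cut, had the smallest p (2.23 ± 0.0725 and 4.59 ± 1.71 CPM, 1.04 ± 0.27, adjusted p = 0.0697), and its difference was 0.84 ± 0.29 without PBS library 4 and rFGF21 library 5. In the same fit the substrate Col3a1 went from 0.51 to 0.21 and Eln from 0.51 to -0.09, while Fn1, Comp and Lamc1 stood higher than with all libraries. Cathepsins had 0 of 5 called by edgeR and 1 higher by DESeq2, with Ctss (0.38 ± 0.13) and Ctsk (0.71 ± 0.31) higher at an unadjusted p under 0.05. Without PBS library 4 and rFGF21 library 5 these came to 0.23 ± 0.11 for Ctss and 0.32 ± 0.19 for Ctsk.

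**Figure D5:**
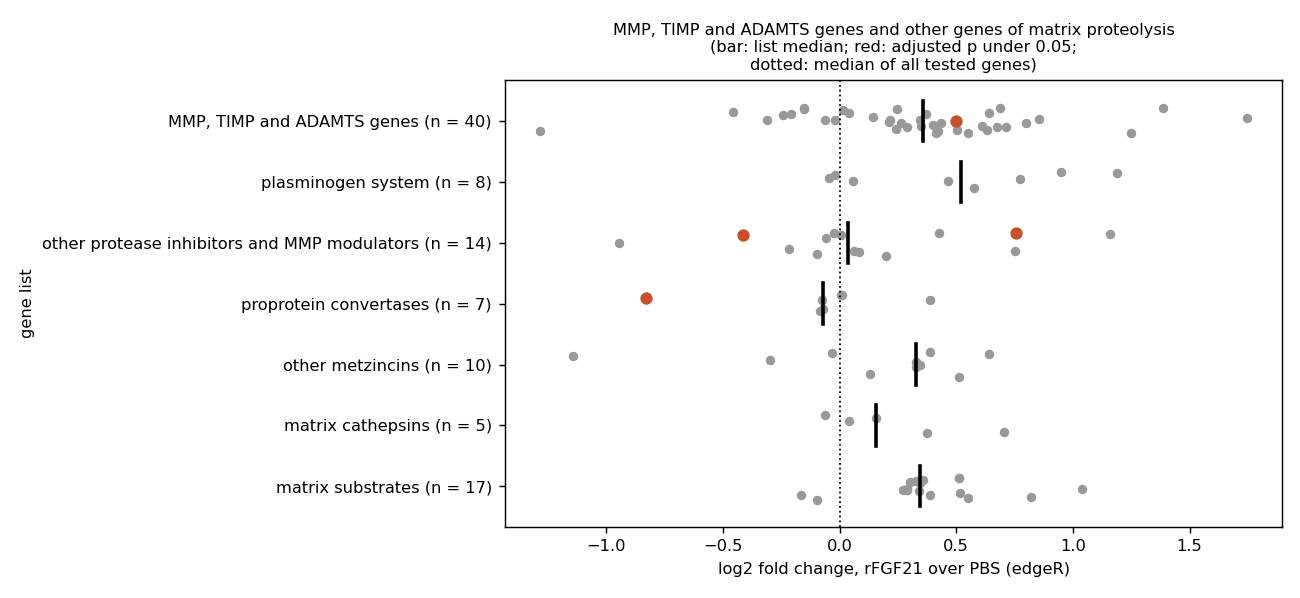
Log2 fold change (rFGF21 over PBS, edgeR) of each tested gene, for the 40 genes of the 4 families and for 6 lists of other genes of matrix proteolysis; black bars are list medians and the dotted line the median of all tested genes (0.00338). Red points passed the test: Mmp14, Thbs1, Tfpi2 and Pcsk4.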

How the data were processed

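Whole-liver RNA of 8 samples was sequenced. Per the file headers, the authors deposited a table of raw read counts per gene, beside FPKM columns. Bowtie 0.12.2 and mm8 are named, per the submitters' processing notes, but 39 of the 45 genes have the same coordinates in GENCODE mouse release M21 (GRCm38), so coordinates are given as the table prints them. As for the counter and its strand setting, no label or header names them, so reads of genes overlapping on opposite strands cannot be told apart. Small deposited counts were uneven: the value 4 occurred 7128 times in the 8 libraries, 3 occurred 4042 times and 5 occurred 2314 times, so a low count may not equal as many independent fragments.

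The 4 count columns per group that have an FPKM partner entered; the other 2 did not. Column numbers differ from the sample numbers, so columns were assigned to groups only, with 1 measure, and the 8 FPKM columns were left out. Levels per length, planned on FPKM, were computed from the counts (CPM per kb of GENCODE M21 exon). No pair of libraries agreed within sampling noise (chi-square per degree of freedom at least 47.1). This value lay between 146.2 and 288.8 for the pairs of PBS library 5 and between 136.8 and 251.5 for those of PBS library 4. For the pairs of rFGF21 library 5 it lay between 49.37 and 288.8. Counts of the whole table were tested with edgeR 4.0.16 (R 4.3.3): filterByExpr, TMM and the two-sided quasi-likelihood F test, with Benjamini-Hochberg adjustment over 18315 genes; an adjusted p under 0.05 is called. Every adjusted p is from edgeR unless another tool is named. SE follows from the F statistic. Alternatives used DESeq2 1.42.0, other scalings and filters, and leaving out libraries. The edgeR step was tested on simulated data.

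The genes, their roles and the lists were chosen with earlier results of these data known, and no list was tested as a set. Values per library are given for genes with an unadjusted p under 0.05, for the most abundant gene of each role and for the TIMPs; genes given beyond these were chosen after their values were seen, as was leaving out PBS library 4 and rFGF21 library 5 together.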

Additional observations from a re-analysis of the deposited data

Results flagged for a closer look

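Of 80 sets of 4 libraries (40 tested genes in 2 groups), 2 held a library far from the other 3 of its group, where chance gives about 1 in 20. Mmp2 in PBS library 4 was 15.3 CPM, against 26.5 to 28.0 CPM in the other PBS libraries. Mmp16 in rFGF21 library 5 was 0.621 CPM, against 0.178 to 0.253 CPM in the other rFGF21 libraries, a gene with 126 reads in all.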

How the results depend on the processing

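With 516 genes called over the table, DESeq2 called 1424, edgeR without a filter on low counts 198, and edgeR without PBS library 4 and rFGF21 library 5 called 223. With 1 library left out the count lay between 131 (without rFGF21 library 1) and 486 (without PBS library 4). Of all calls 40.7% were higher, against 59.1% with library totals alone. Among the MMP, TIMP and ADAMTS genes, DESeq2 called 5 higher (Adamtsl4, Mmp14, Mmp2, Timp1 and Timp3), of 685 over the table, and 1 lower (Mmp27), of 739. In these families 0 were called higher by edgeR without a filter and without PBS library 4 and rFGF21 library 5. With 1 library left out 0 to 1 were called higher and 0 lower; the call was Mmp14 without PBS library 2 and Adamtsl4 without rFGF21 library 2. The cause of these changes was not tested, except that fits with fewer samples have less precision. The planned limma fits on FPKM were not run, since columns of 1 measure only could be assigned to the groups.

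Of 22 genes followed through 15 alternatives (14 for Mmp13 and Timp4, which a filter of at least 1 CPM in at least 4 libraries removes), 3 changed sign. Adamts1 was at 0.0629 with library totals alone, -0.0962 to 0.0466 with 1 library left out (0.0323 without rFGF21 library 1) and 0.0007 without PBS library 4 and rFGF21 library 5. Mmp7 was at -0.0533, -0.0662 and -0.1981 without PBS library 1, PBS library 2 and rFGF21 library 3 (up to 0.2717 without PBS library 5), and Timp2 at -0.0046 without PBS library 4 and rFGF21 library 5. None of these 3 was called in any of these fits. No paired analysis was possible because the columns do not carry the sample numbers of the labels. Depth limits the 10 genes under 0.1 CPM per kb.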

Other observations

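In GENCODE M21, 2 Timp genes share exonic bases with a synapsin gene. Timp3 shares 1733 of its 8144 exonic bases with Syn3, which had 391 reads over the 8 libraries, against 34731 for Timp3. Timp4 shares 90 of its 5894 exonic bases with Syn2. Syn2 averaged 1.10 ± 0.405 CPM without and 2.75 ± 1.64 CPM with rFGF21, a log2 difference of 1.32 ± 0.42 (edgeR adjusted p = 0.121), beside 1.25 ± 0.44 for Timp4. Mmp11 shares 155 of its 2778 exonic bases with Chchd10, a mitochondrial protein gene, which fell from 141 ± 23.0 to 93.7 ± 7.95 CPM (-0.59 ± 0.12, edgeR adjusted p = 0.0357) while Mmp11 stood 0.67 ± 0.27 higher without passing. These neighbours were chosen after their values were seen.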
